A study of Mus musculus with 16 samples.

Results

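The genes described here encode integrins and laminins. They were chosen by symbol (Itga or Itgb followed by the name of a subunit, and Lama, Lamb or Lamc followed by the number of a chain) among genes with a count above 0 in any tumor, and 37 of the 21854 genes with a count met this rule, 26 of them integrin subunits and 11 laminin chains. RNA-seq had been performed on 16 primary rhabdoid tumors, each from a different mouse carrying Smarcb1flox/flox;R26-CreERT2, in which tamoxifen given to the embryo activates a Cre recombinase driven from the Rosa26 locus in all cell types, so that no tumor comes from an intact control. The 5 tumors inside the central nervous system (CNS) belonged to the Shh subgroup of the study, were all induced at embryonic day 6 (E6) and came from mice aged 30 to 180 days. The 11 other tumors belonged to the Myc subgroup: 6 were intracranial but outside the CNS (induced once at E6, once at E7 and otherwise at E8, ages 52 to 170 days) and 5 were extracranial, in the back, jaw, nose or mouth (induced once at E6 and otherwise at E8, ages 80 to 210 days). The subgroups therefore coincide with location, and their difference and that of location cannot be told apart.

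Integrins are heterodimeric receptors, built from an α and a β subunit, that tie the cytoskeleton to the extracellular matrix or to ligands on other cells. Laminins are trimers of an α, a β and a γ chain that polymerize into the basement membranes lying under epithelia and around vessels, muscle, nerves and the surface of the brain. The α chain largely sets which integrins and other receptors a laminin binds, while the α and β subunits together set the ligands of an integrin.

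Library depth ranged from 17889968 to 110177889 counts per tumor. Smarcb1 was detected in every tumor, at 3.99 to 58.1 TPM in the Shh and 6.48 to 43.7 TPM in the Myc tumors (TPM is the level of a transcript per unit of its length, scaled to the same sum in every tumor), and its level over the whole gene does not show the deletion. In the intracranial Myc tumor R26P115, 6 choroid plexus markers summed to 204886 TPM and the gene Ttr alone took 20.0% of all TPM. The same markers summed to 4665 TPM in the Shh tumor 29048 and to at most 133 TPM in any other tumor. In 29048 the 7 oligodendrocyte markers also summed to 6725 TPM and the 8 neuron markers to 5211 TPM. The neuron markers summed to 2882 TPM in the Shh tumor 38594A.

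To place on the genome the integrins for which the subgroups did not overlap on counts scaled between libraries (TMM), the 250 bases before their RefSeq start (build GRCm38.p6, 5′ to 3′ on the strand of the gene) are shown for the 3 of them found in the RefSeq promoter table. These are Itga5 on the minus strand (chr15:103366792-103367041), Itgam on the plus strand (chr7:128062390-128062639) and Itgb1 on the plus strand (chr8:128685404-128685653). Capitals mark matches on either strand to the GC box GGGCGG, which binds Sp1, and to GAGGAA, the core bound by the myeloid factor PU.1, and these 2 kinds of match overlap in none of the 3.
Itga5: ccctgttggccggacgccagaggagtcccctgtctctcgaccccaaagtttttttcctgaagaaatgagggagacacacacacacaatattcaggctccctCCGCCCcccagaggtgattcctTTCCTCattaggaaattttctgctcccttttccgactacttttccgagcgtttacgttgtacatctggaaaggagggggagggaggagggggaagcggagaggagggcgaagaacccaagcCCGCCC
Itgam: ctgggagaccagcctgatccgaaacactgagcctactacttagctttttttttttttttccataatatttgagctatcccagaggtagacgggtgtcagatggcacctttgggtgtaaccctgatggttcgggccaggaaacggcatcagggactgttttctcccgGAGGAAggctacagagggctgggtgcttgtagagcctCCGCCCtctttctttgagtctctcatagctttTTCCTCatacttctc
Itgb1: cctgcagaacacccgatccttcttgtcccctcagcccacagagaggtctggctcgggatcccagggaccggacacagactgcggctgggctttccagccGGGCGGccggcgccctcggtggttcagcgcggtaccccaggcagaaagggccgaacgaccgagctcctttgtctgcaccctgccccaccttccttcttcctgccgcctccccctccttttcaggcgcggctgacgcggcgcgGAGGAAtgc
Each of the 3 windows held at least 1 match to both motifs. The table held 26 windows for 23 members, of which 9 held a GC box and 13 a GAGGAA core, against 32.7% and 23.3% of all 32851 windows in the table. TGANTCA, bound by AP-1, was found in 1 of the 26 (6.75% of all windows) and TATAAA, the TATA box, in 0 of them (12.4%). A match describes the letters of a window only.

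Summed integrin transcripts were lower on average in the Shh tumors than in the Myc tumors, at 587 ± 202 TPM (SD, n = 5) and 1471 ± 485 TPM (n = 11). Summed laminin transcripts were at 235 ± 65.4 and 368 ± 133 TPM. The ranges overlapped, at 434 to 930 and 622 to 2003 TPM for integrins and 156 to 325 and 257 to 682 TPM for laminins. The sums were not tested. The first comparison asked which of these genes differ between the subgroups. Of the 37 members, 16 were lower in the Shh tumors and 0 were higher (edgeR quasi-likelihood test, adjusted p below 0.05 over all genes and a log2 fold change beyond 1), that is 13 of 26 integrins and 3 of 11 laminins. By DESeq2, the tool of the study, 19 were lower and Itga7, Itgb8 and Lama1 were higher (29.1% of all genes called), and by limma on log2(TPM + 1) 9 were lower and Itgb8 and Lama1 higher (24.8% of all genes). The same rule called 26% of all genes, 12.9% as higher and 13.1% as lower in Shh tumors (2829 and 2860 genes, and 4082 and 1324 by limma). At an unadjusted p below 0.05 the test gave 20 of the 37 members and 44.4% of all genes. The log2 fold change was below 0 for 31 of the 37 members, with a median of -1.79, against a median of -0.15 over all genes. On counts scaled between libraries (TMM), the ranges of the subgroups did not overlap for 5 of the 35 members with a mean count of at least 50, all lower in Shh tumors: Itga5, Itgam, Itgb1, Itgb2 and Itgb3; of all such genes 8.02% were lower and 6.94% higher without overlap.

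**Figure D1:**
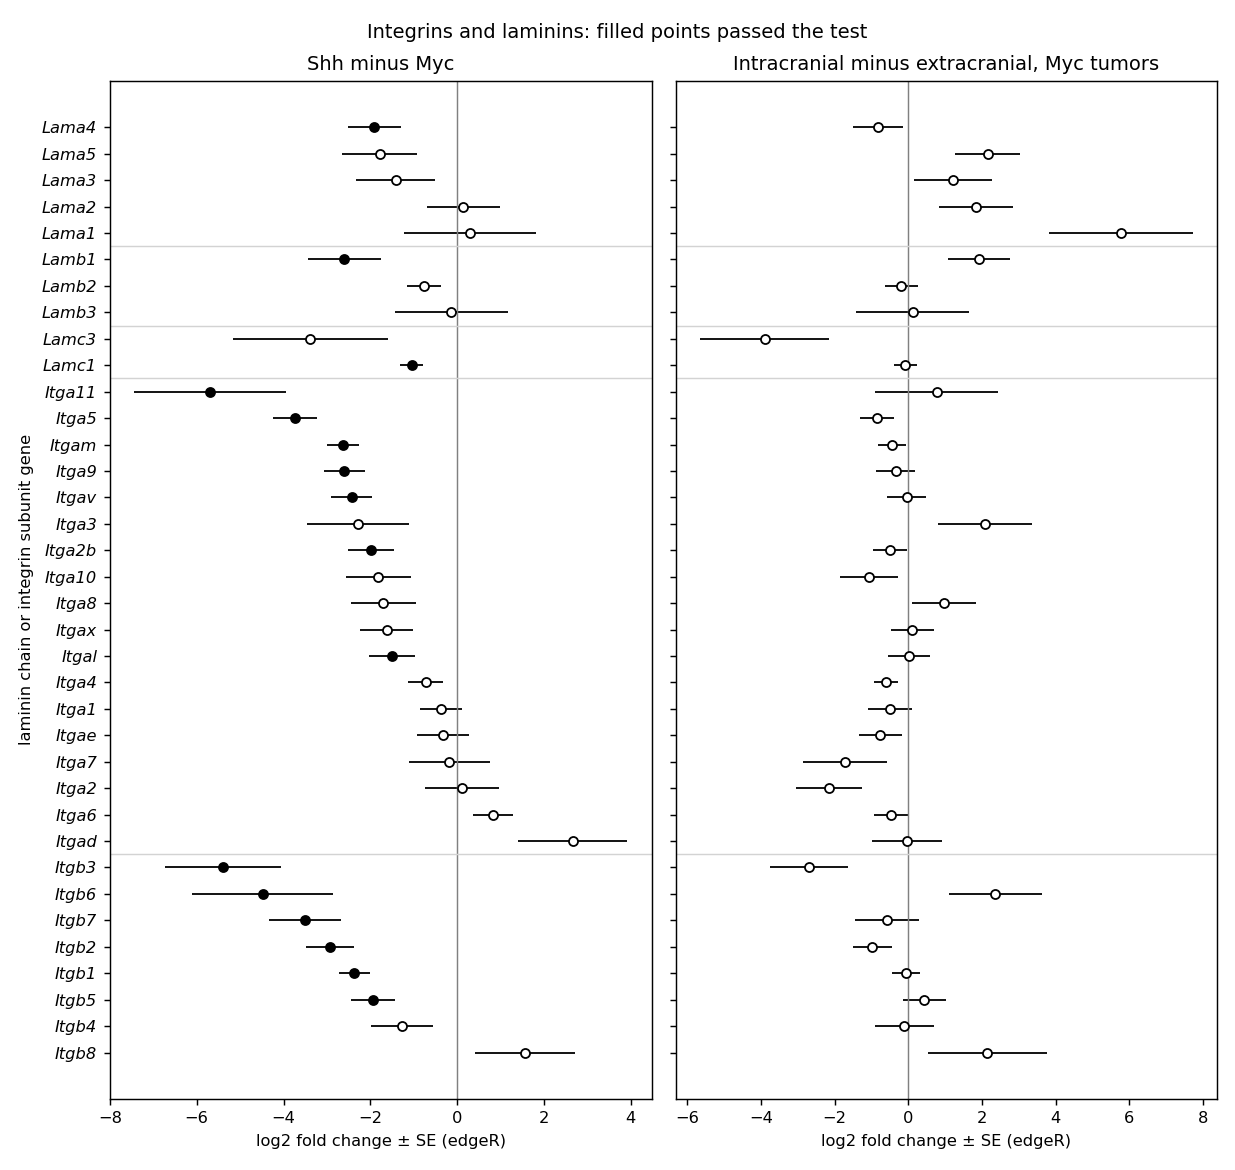
Log2 fold change ± SE from edgeR for 36 of the 37 members, Shh minus Myc tumors on the left (5 against 11) and intracranial minus extracranial Myc tumors on the right (6 against 5); filled points passed the test and grey lines part the classes. On the left 16 points are filled, all below 0, from -5.69 for Itga11 to -1.04 for Lamc1, and on the right none is filled.

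Of the 4 α subunits of receptors for fibronectin, vitronectin and other ligands that carry the Arg-Gly-Asp motif, 3 were lower in Shh tumors, beside 13.1% of all genes. Positions are those of GENCODE M21 on GRCm38. Itga5, the α subunit of the main fibronectin receptor, lies on chromosome 15 (103344286 to 103366763, minus strand). In the Shh tumors 29048, 38594A, 29050A, R26P98 and R26P87, an order kept below, it was at 6.08, 6.58, 6.26, 10.3 and 10.3 TPM. In the Myc tumors it ran from 21.3 through a median of 59.2 to 169 TPM. Every Myc tumor was above every Shh tumor, with a log2 fold change of -3.74 ± 0.51 (SE; edgeR adjusted p = 6.44e-05). Itgav, the α subunit shared by the vitronectin receptors and the activators of latent TGFβ, was at 57.2, 38.2, 46.7, 57.3 and 26.9 TPM in the Shh tumors and at 37.6 to 300.2 TPM (median 170.2) in the Myc tumors. It was higher in 9 of the 11 Myc tumors than in any Shh tumor, and R26P115 and 43990A were the exceptions (log2 fold change -2.43 ± 0.46, adjusted p = 0.000853). Itga2b, the α subunit of the platelet fibrinogen receptor, was at 3.78, 9.42, 3.14, 4.35 and 0.837 TPM in the Shh and at 2.79 to 24.2 TPM (median 11.5) in the Myc tumors, so that the groups overlapped (-1.99 ± 0.53, adjusted p = 0.00838), and it did not pass against the intracranial Myc tumors alone (-1.75, adjusted p = 0.063). Of 7 platelet markers, 3 were lower in Shh tumors and 4 were not called, beside 13.1% of all genes called lower. Only 2 of the 7 had a mean count of at least 50. Their summed level was 2.06 to 8.60 TPM in Shh and 13.3 to 375 TPM in Myc tumors. The part of platelets in the Itga2b difference was not tested. Itga8, the nephronectin receptor subunit, did not pass the test (-1.70 ± 0.75, adjusted p = 0.0915, and -0.92 without R26P115, adjusted p = 0.138).

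Of the β subunits that pair with Itgav or Itga5, Itgb1, Itgb3, Itgb5 and Itgb6 were lower in Shh tumors, beside 13.1% of all genes. Itgb8 had a positive fold change and is described further on. Itgb1, the partner of most α subunits and the β subunit with the highest TPM in all 16 tumors, lies on chromosome 8 (128685654 to 128733200, plus strand). It was at 106, 119.7, 122, 261 and 132 TPM in the Shh tumors. In the Myc tumors it ran from 182 through 519 to 1012 TPM. In TPM only R26P115 among the Myc tumors was below the highest Shh tumor (R26P98), and the log2 fold change was -2.37 ± 0.36 (adjusted p = 0.000141). Itgb3, the β subunit of the vitronectin and platelet fibrinogen receptors, also abundant in osteoclasts (chromosome 11, 104608000 to 104670476, plus strand), was at 1.56, 1.41, 0.628, 0.633 and 0.651 TPM in the Shh tumors and at 1.34 to 193 TPM (median 8.09) in the Myc tumors, of which only 43992A lay below the highest Shh tumor. Its highest value belonged to 43998A, an extracranial tumor of the mouth in which 6 osteoclast markers summed to 22015 TPM, against 2647 TPM in the next tumor, R26P123. The log2 fold change of Itgb3 was -5.39 ± 1.33 (adjusted p = 0.00542), and -4.05 without 43998A (adjusted p = 0.00191). Itgb5, another vitronectin receptor subunit, was at 69.9, 110.3, 57.2, 64.3 and 51.4 TPM in the Shh and at 48.6 to 442 TPM (median 124) in the Myc tumors. Its groups overlapped, with 7 Myc tumors above all Shh tumors (-1.94 ± 0.51, adjusted p = 0.00786). Itgb6, an epithelial activator of TGFβ, had a mean count of only 25.7 and passed narrowly (-4.48 ± 1.62, adjusted p = 0.0423), and not without R26P115 (-3.09, adjusted p = 0.0551) or without any of 5 other tumors (38594A, 29050A, R26P98, R26P87 and R26P170, adjusted p 0.0506 to 0.0943), nor with the naming scheme of the mice (by number or as R26P) as a covariate (adjusted p = 0.112).

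**Figure D2:**
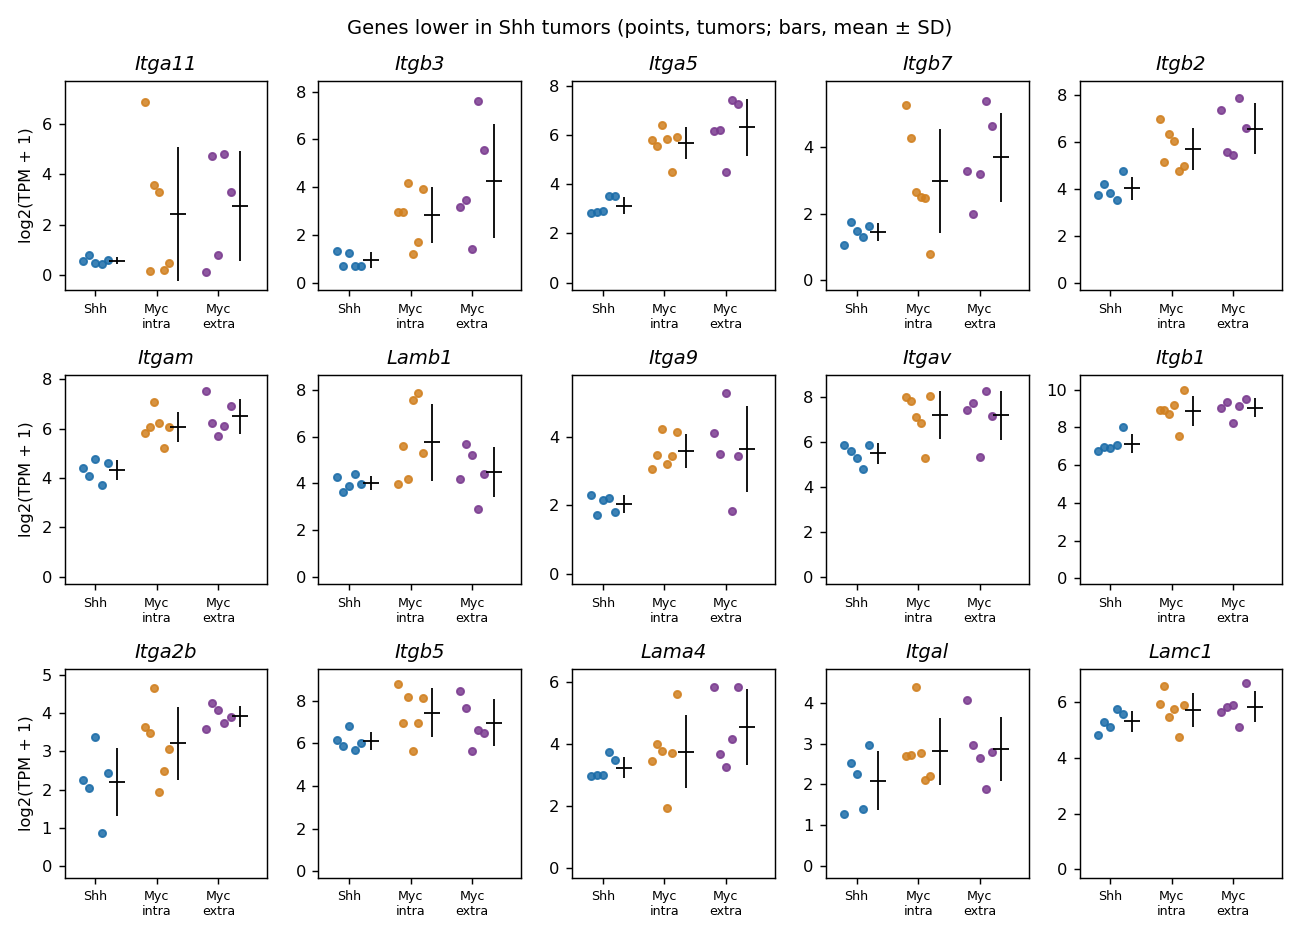
Level in log2(TPM + 1) of the 15 members with a mean count of at least 50 that were lower in Shh tumors, in 5 Shh, 6 intracranial Myc (Myc intra) and 5 extracranial Myc tumors (Myc extra); each point is a tumor and the bars give the mean ± SD. For Itga5 and Itgam all Myc tumors lie above all Shh tumors, while for Itga11 and Lama4 the groups overlap.

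Leukocyte integrins were the next group. Their β subunit Itgb2 pairs with Itgal on lymphocytes and with Itgam and Itgax on macrophages, neutrophils and dendritic cells. Itgam, which lies on chromosome 7 (128062640 to 128118491, plus strand), was at 20.4, 26.6, 15.9, 23.1 and 12.3 TPM in the Shh and at 36.0 to 182 TPM (median 69.0) in the Myc tumors. The groups did not overlap (-2.63 ± 0.37, adjusted p = 8.92e-05). In GENCODE M21 another gene, Gm49368, overlaps exons of Itgam on the same strand. The annotation used for counting is not given, so whether this touched the Itgam counts is not known. Itgb2 (chromosome 10, 77530252 to 77565708, plus strand) was at 12.6, 13.4, 17.6, 26.5 and 10.6 TPM in the Shh and at 26.3 to 233 TPM (median 64.1) in the Myc tumors. In TPM, R26P115 lay just below the highest Shh tumor (-2.93 ± 0.56, adjusted p = 0.000884). Itgal was at 1.43, 3.82, 4.78, 6.83 and 1.63 TPM in the Shh and at 2.69 to 20.2 TPM (median 5.63) in the Myc tumors. It overlapped widely (-1.51 ± 0.53, adjusted p = 0.0381) and did not pass without any one of 29048, 38594A, 29050A, R26P87 or 43825B (adjusted p 0.0565 to 0.0940), nor with the naming scheme of the mice as a covariate (adjusted p = 0.071). Itgax was short of the threshold (-1.63 ± 0.61, adjusted p = 0.0514), and passed by DESeq2 (adjusted p = 0.0118) and by edgeR after a filter on low counts, among the mice named by number or without any one of 43990A, 29941C, R26P98, R26P123 or R26P115 (adjusted p 0.0322 to 0.0474). Itgae, which holds T cells to epithelium, and Itgad, whose mean count was 5.12, did not pass either.

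Leukocyte marker genes differed between the subgroups as well. Of 16 markers, 14 were lower in Shh tumors, beside 13.1% of all genes. Their summed level was 1126 to 1861 TPM in Shh and 2262 to 17484 TPM in Myc tumors, with none of the 16 at 0 throughout a group. Of 6 markers of microglia, the macrophages of the brain, Sall1 and Siglech were higher and Olfml3 was lower in Shh tumors, and their sums overlapped, at 359 to 703 TPM in Shh and 231 to 1665 TPM in Myc tumors. The part of leukocyte or microglial content in the levels of Itgam, Itgb2 and Itgal was not tested, and in such bulk samples fewer cells of a type and less RNA per cell cannot be told apart. The 8 fibroblast markers were all lower in Shh tumors, beside 13.1% of all genes, with sums of 145 to 565 and 654 to 11608 TPM. This bears in the same way on the matrix receptors and was not tested. Among brain markers, 4 of 8 for neurons, 3 of 6 for astrocytes and 5 of 7 for oligodendrocytes were higher in Shh tumors, beside 12.9% of all genes, and without 29048 these counts were 3, 1 and 0, beside 11% of all genes.

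**Figure D3:**
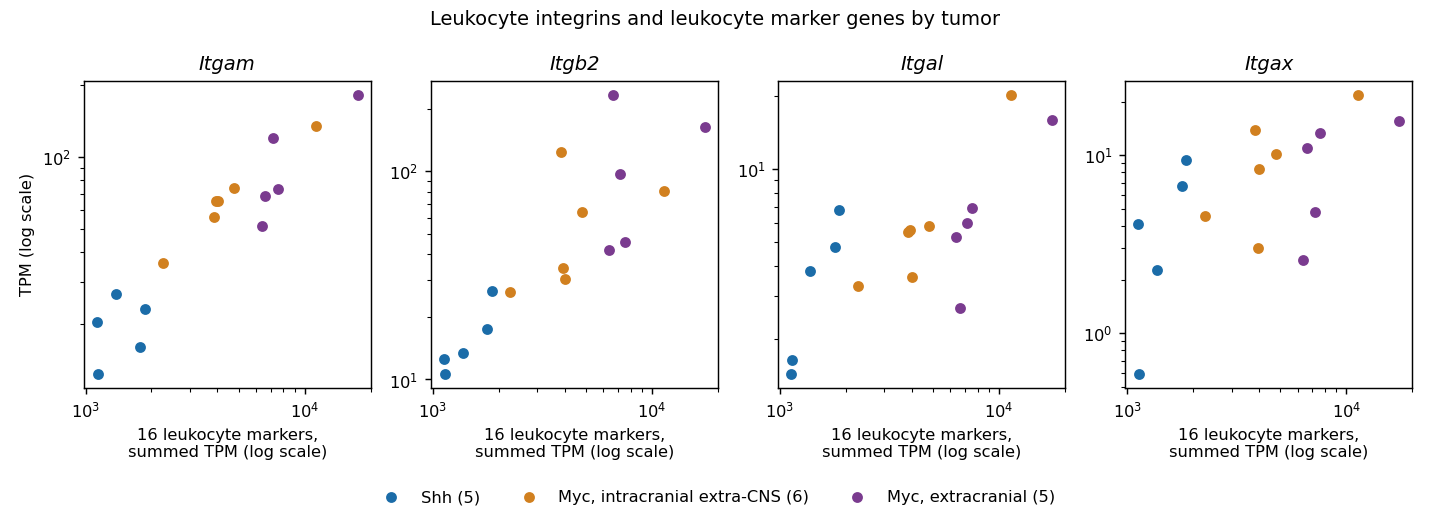
TPM of Itgam, Itgb2, Itgal and Itgax (vertical, log scale) against the summed TPM of 16 leukocyte markers (horizontal, log scale), each point being 1 of 16 tumors in 3 groups. All Shh tumors lie at the left, at marker sums up to 1861 TPM, and all Myc tumors to the right of them, from 2262 TPM.

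The related subunits Itga4 and Itga9 and the collagen receptors differed in part. Itga9, a receptor subunit for tenascin and osteopontin, was at 3.93, 3.48, 2.24, 2.48 and 3.60 TPM in the Shh and at 2.58 to 37.7 TPM (median 9.91) in the Myc tumors. Only 43998A among the Myc tumors lay below any Shh tumor (-2.60 ± 0.47, adjusted p = 0.00062). Itgb7, the β subunit of gut-homing lymphocytes, was at 1.08, 1.78, 2.38, 2.07 and 1.45 TPM against 0.712 to 41.0 TPM (median 8.19). R26P170 was the Myc tumor below all Shh tumors, and the other 10 were above them (-3.51 ± 0.84, adjusted p = 0.00432). Itga4, the partner of Itgb7 and Itgb1 on lymphocytes, did not pass (-0.73 ± 0.40, adjusted p = 0.17), and was called without 38594A (-1.30, adjusted p = 0.0173). Itga11, a collagen receptor subunit of fibroblasts, was at 0.447, 0.375, 0.711, 0.516 and 0.336 TPM in the Shh tumors. In the Myc tumors it spread from 0.0849 to 117 TPM (median 8.70), with 3 tumors below all Shh tumors and 6 above. Its log2 fold change of -5.69 ± 1.74 (adjusted p = 0.0193) therefore rests on part of the Myc tumors; without 29225D, the highest, it was -4.64 (adjusted p = 0.0258). The other collagen receptor subunits, Itga1, Itga2 and Itga10, did not pass (adjusted p 0.572, 0.93 and 0.0744), but Itga10 (-1.82) passed by DESeq2 (adjusted p = 0.0205), without 43990A or R26P98 and against the extracranial Myc tumors alone (adjusted p 0.0369 to 0.0494).

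Of the α subunits of laminin-binding integrins, 0 of Itga3, Itga6 and Itga7 passed the edgeR test, and a difference from the other classes was not tested. By median TPM Itga6 was the leading α subunit in the Shh tumors. Itga6, which joins epithelia and neural progenitors to laminin, was at 41.2, 63.4, 207, 299 and 107 TPM in the Shh tumors and led all α subunits in 4 of them. In the Myc tumors it was at 18.6 to 112 TPM (median 51.7), and Itgav led, at a median of 170.2 TPM, in 5 of the 11. Itga6 made up a median of 44.3% of the α subunit TPM in Shh and 8.82% in Myc tumors, with shares of 18.4 to 54.1% and 3.73 to 20.0%, while its own fold change did not pass (0.83 ± 0.46, adjusted p = 0.174, and 0.37 without R26P98). Itga7, the receptor subunit of muscle and Schwann cells, named after its values were seen, was at 33.4, 24.0, 38.3, 44.9 and 31.8 TPM in the Shh tumors. Of the Myc tumors, 9 lay below all of these and 43987A, a tumor of the jaw, reached 202 TPM (-0.18 ± 0.93, adjusted p = 0.897; 1.30 without 43987A, adjusted p = 0.0562; 1.26 by DESeq2, adjusted p = 0.0322). Itga3, also named after its values were seen, was at 4.48 to 26.3 TPM in Shh and at 0.604 to 193 TPM in Myc tumors, highest in 43992A (-2.28 ± 1.18, adjusted p = 0.144; -1.42 without 43992A, adjusted p = 0.274; -2.23 by DESeq2, adjusted p = 0.0484; -2.91 against the intracranial Myc tumors alone, adjusted p = 0.0375). Itgb4, the partner of Itga6 in hemidesmosomes, did not pass (-1.28 ± 0.72, adjusted p = 0.179).

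Itgb8, the Itgav partner that activates TGFβ in the brain and on its vessels, stood apart from the other β subunits and was named after its values were seen (chromosome 12, 119158022 to 119238802, minus strand). It was at 9.03, 22.5, 15.5, 20.9 and 23.4 TPM in the Shh tumors. It was below all of them in 10 of the 11 Myc tumors, at a median of 0.712 TPM, and at 30.9 TPM in R26P115. With all tumors the difference did not pass by edgeR (1.56 ± 1.16, adjusted p = 0.309) but did by DESeq2 (3.16, adjusted p = 0.000625) and by limma on log2(TPM + 1) (2.94, adjusted p = 0.00213). By edgeR without R26P115 Itgb8 was higher in Shh tumors (log2 fold change 3.44 ± 0.84, adjusted p = 0.00444). Among the Shh tumors 29048 was the lowest, and with both tumors left out, an alternative chosen after seeing the data, 16 members were called, 15 lower in Shh tumors and Itgb8 higher, beside 27.1% of all genes.

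**Figure D4:**
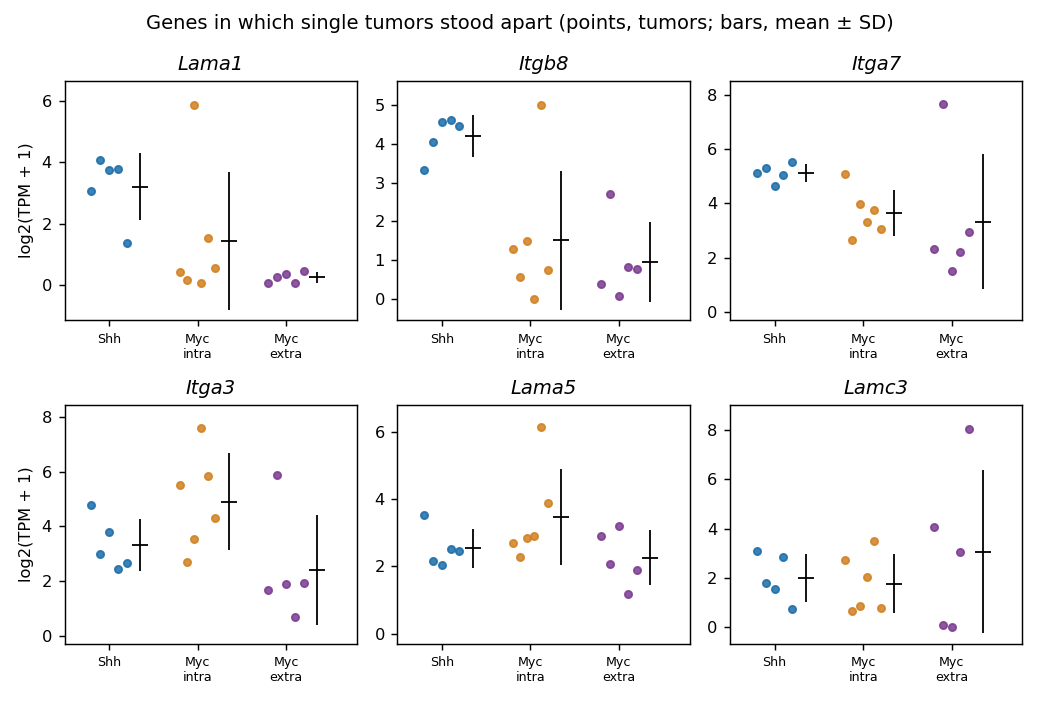
Level in log2(TPM + 1) of 6 members, chosen after their values were seen, in 5 Shh, 6 intracranial Myc and 5 extracranial Myc tumors; each point is a tumor and the bars give the mean ± SD. Single Myc tumors reach the top of their panel: 43989C for Lama1, R26P115 for Itgb8 and Lama5, 43987A for Itga7, 43992A for Itga3 and R26P123 for Lamc3.

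Of the 11 laminin chains, Lama4, Lamb1 and Lamc1 were lower in Shh tumors, a share of 27.3% beside 26% of all genes. Lama4, the α chain of vessels and mesenchyme, was at 6.86, 7.06, 7.04, 10.1 and 12.5 TPM in the Shh tumors. In the Myc tumors it was at 2.87 to 56.6 TPM (median 12.8), with 43992A below and 6 tumors above all Shh tumors (-1.91 ± 0.61, adjusted p = 0.0238). Lamb1, a β chain of most embryonic laminins, was at 18.3, 13.9, 11.4, 14.6 and 20.1 TPM against 6.43 to 237 TPM (median 36.2), highest in R26P115 and 43992A (-2.60 ± 0.84, adjusted p = 0.0255). Lamc1, the γ chain of most laminins, was at 27.6, 33.2, 38.3, 46.9 and 53.4 TPM against 25.7 to 101 TPM (median 55.3). Its difference was small but narrow in error (-1.04 ± 0.27, adjusted p = 0.00683), and it fell short of the fold threshold without any one of 29048, 38594A, 29941C or R26P123 (-0.98 to -0.93). The call of Lama4 was lost without 29048, 38594A or 29050A (adjusted p 0.0562 to 0.0584) and that of Lamb1 without 38594A, 29050A or R26P98 (0.0546 to 0.0616). By site, Lama4 did not pass against the intracranial Myc tumors alone, nor Lamb1 against the extracranial Myc tumors alone. Neither passed among the mice named by number.

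Between chains of the same kind, levels were compared in TPM. Lamb2, a β chain of synaptic, glial and vascular basement membranes, was the leading β chain in all 5 Shh tumors, at 69.7, 106, 158, 243 and 148 TPM, and in 9 of the 11 Myc tumors, at 49.2 to 363 TPM (median 176). It did not pass the test (-0.76 ± 0.39, adjusted p = 0.143). Lamc1 led the γ chains in 15 of the 16 tumors. In R26P123, an extracranial tumor of the jaw, Lamc3 led instead, at 266 TPM; the other 10 Myc tumors had at most 15.9 TPM, and the fold change of Lamc3 between subgroups moved from -3.38 ± 1.79 (adjusted p = 0.152) to -0.83 without R26P123 (adjusted p = 0.583).

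The leading α chain varied among tumors. Lama1, the α chain of the embryonic and pial basement membrane, led in 3 of the 5 Shh tumors (Lama4 and Lama5 in 1 each), and Lama4 led in 8 of the 11 Myc tumors. Lama1 (chromosome 17, 67697259 to 67822647, plus strand) was at 7.29, 12.5, 15.8, 1.61 and 12.8 TPM in the Shh tumors. It was below all of them in 9 Myc tumors, with a median of 0.291 TPM over the 11, and reached 57.6 TPM in 43989C. Its share of the α chain TPM was 8.82 to 53.1% in the Shh tumors (median 38.2%) and at most 1.98% in 10 of the 11 Myc tumors. By edgeR the fold change was 0.30 ± 1.52 with all tumors (adjusted p = 0.893) and 4.09 ± 0.81 without 43989C (adjusted p = 0.00159). With all tumors it was 3.71 by DESeq2 (adjusted p = 4.52e-05) and 2.32 by limma on log2(TPM + 1) (adjusted p = 0.0298), both of which passed. Lama5, the main α chain of mature epithelia and vessels, reached 70.5 TPM in R26P115 and was at 1.27 to 13.8 TPM in the other 15 tumors (-1.79 ± 0.87, adjusted p = 0.121, and -0.65 without R26P115, adjusted p = 0.266). The epithelial chains Lama3 and Lamb3 were low, at most 5.96 and 6.15 TPM, and did not pass (adjusted p 0.233 and 0.944), nor did Lama2, the α chain of muscle and Schwann cells (0.911).

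**Figure D5:**
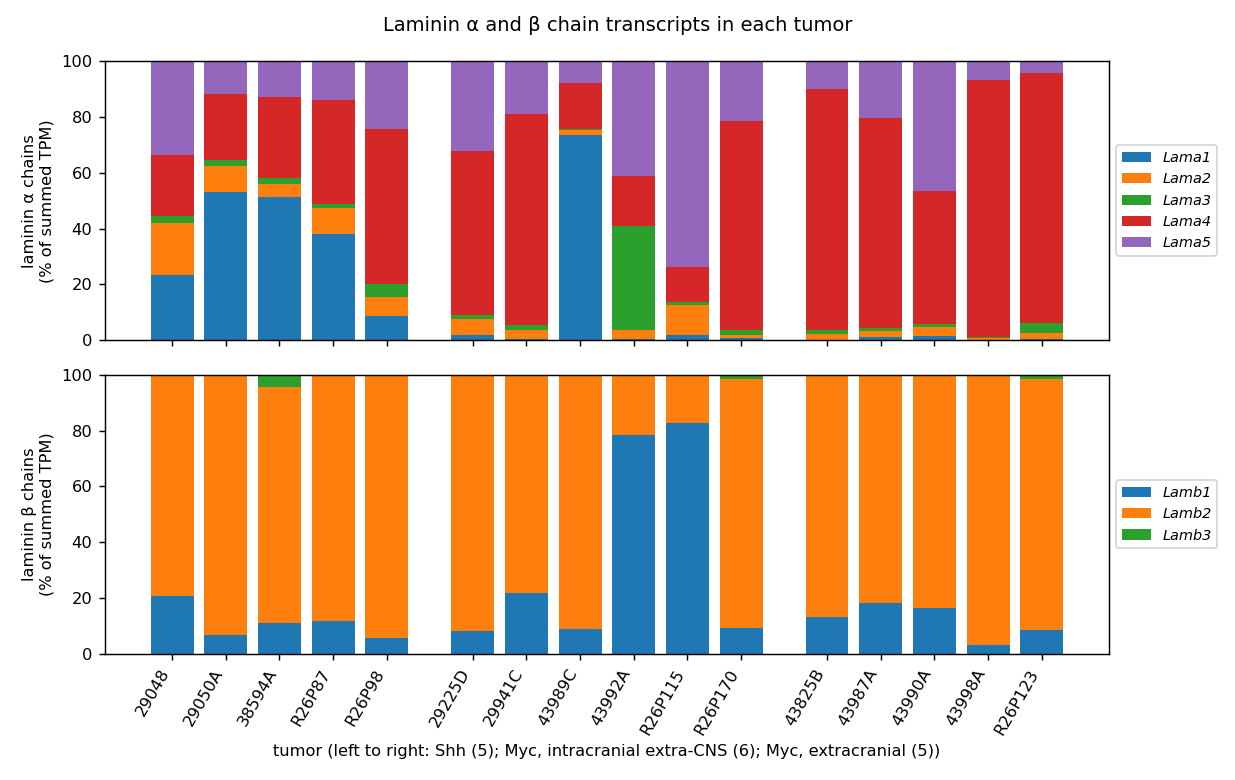
Share of each laminin chain in the summed TPM of its kind (α or β chains, in %) for each of the 16 tumors, with the 5 Shh tumors on the left, 6 intracranial Myc tumors in the middle and 5 extracranial Myc tumors on the right. Lama1 takes a large share in 4 Shh tumors and in 43989C, Lama4 leads in all 5 extracranial tumors, and Lamb1 exceeds Lamb2 only in 43992A and R26P115.

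Since all Shh tumors and 2 Myc tumors (43825B and R26P170) were induced at E6, the subgroups were also compared within that day. Of the 37 members 13 passed, 10 of them lower in Shh tumors, against 3533 of 20904 genes (16.9%). Itga5 (-3.61 ± 0.31, adjusted p = 0.00117), Itgb1 (-2.92 ± 0.43, adjusted p = 0.00574) and Lama4 (-3.16 ± 0.30, adjusted p = 0.0016) were among the lower ones. Itgb8 (4.62 ± 0.66, adjusted p = 0.00516) and Lama1 (4.68 ± 1.21, adjusted p = 0.0367) were among the 3 higher ones, neither R26P115 nor 43989C being induced at E6. The third was Itga7 (2.03 ± 0.39, adjusted p = 0.0134). Of the 16 members called with all tumors, 6 did not pass within E6: Itga11, which turned to 0.45 (adjusted p = 0.684), Itga2b (-1.67, adjusted p = 0.155), Itgb6 (-3.64, adjusted p = 0.151), Itgb7 (-2.01, adjusted p = 0.131), Itgal (-1.98, adjusted p = 0.109) and Lamc1 (adjusted p = 0.0585). No sequencing batch is given in the labels, but the mouse names follow 2 schemes. Among the 11 mice named by number, 13 members passed, 12 of them lower in Shh tumors and Lamb3 higher, against 5524 of 21509 genes (25.7%). There Itga11, Itgb5, Itgb6, Lama4 and Lamb1, called with all tumors, did not pass, and Itgax, not called with all tumors, did. Among the 5 mice named R26P 0 members and 0 of 20347 genes passed.

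The second comparison asked whether site matters within the Myc subgroup. Between the 6 intracranial and the 5 extracranial tumors, 0 of the 37 members passed the edgeR test, and 6 had an unadjusted p below 0.05. Of all genes 1 of 21261 passed by edgeR (0.0047%) and 12.3% had an unadjusted p below 0.05. By DESeq2 and by limma 0 members passed as well. DESeq2 called many more of all genes by site than edgeR did, and their number is given in the last paragraph. The ranges of the sites overlapped for each of the 35 members with a mean count of at least 50, while 0.652% of such genes were higher and 0.364% lower in intracranial tumors without overlap. Lama1 was at 57.6 TPM in 43989C and at 0.048 to 1.87 TPM in the other 5 intracranial tumors, against 0.0551, 0.193, 0.291, 0.0466 and 0.373 TPM in the extracranial tumors 43825B, 43987A, 43990A, 43998A and R26P123 (log2 fold change 5.77 ± 1.95, adjusted p = 0.348, and 1.73 without 43989C). Lama5 was at 3.83 to 70.5 TPM (median 6.38) in the intracranial and at 6.55, 3.21, 8.27, 1.27 and 2.71 TPM in the extracranial tumors (2.16 ± 0.88, adjusted p = 0.376, and 0.74 without R26P115). Lamb1 was at 14.7 to 237 TPM (median 42.8) against 17.5, 50.2, 36.2, 6.43 and 20.5 TPM (1.91 ± 0.84, adjusted p = 0.391, and 1.32 without R26P115). These 3 laminin chains had the higher means at the intracranial site, and their groups overlapped.

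The other 3 genes with an unadjusted p below 0.05 had negative fold changes, and none of them passed after adjustment. Lamc3 was at 0.601 to 10.5 TPM in the intracranial and at 15.9, 0.0845, 0.0172, 7.36 and 266 TPM in the extracranial tumors (-3.90 ± 1.75, adjusted p = 0.402, and -0.67 without R26P123). Itgb3 was at 1.34 to 17.1 TPM against 8.09, 10.2, 1.65, 193 and 45.7 TPM (-2.69 ± 1.06, adjusted p = 0.373, and -0.98 without 43998A). Itga2, a collagen receptor subunit of epithelia and platelets, was at 0.395 to 3.31 TPM against 1.36, 2.07, 0.831, 18.8 and 2.44 TPM (-2.16 ± 0.90, adjusted p = 0.379, and -0.51 without 43998A). Itgb3 and Itga2 thus shared their highest tumor, 43998A, with the osteoclast markers, whose part was not tested.

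Partner subunits were compared over the 11 Myc tumors in 15 pairs on log2(TPM + 1). None passed after Benjamini-Hochberg adjustment (permutation test, lowest adjusted p = 0.167 for Pearson's r and 0.214 for Spearman's rho). Of those with an unadjusted p below 0.05 for r, the integrin pairs are given here. Itga5 and Itgb1 gave r = 0.68 (permutation p = 0.0223) and rho = 0.58 (permutation p = 0.0649), and r = 0.69 without the 2 tumors farthest from the median of Itga5. For Itgav and Itgb3, r was 0.61 (permutation p = 0.0439) and rho 0.57 (permutation p = 0.0714), and r was 0.43 without 2 tumors.

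The genes that act with integrins and laminins were read from 4 lists chosen with earlier results of these data known, beside 12.9% of all genes called higher and 13.1% called lower in Shh tumors. Of 24 adaptors between integrins and actin, 13 were lower and 1 was higher in Shh tumors. The lower ones included Fblim1 (-3.87) and Actn1 (-3.05), which bind filamin and actin, and the higher one was Nedd9, a scaffold of focal adhesions (3.19). Of 19 other integrin ligands and activators, 9 were lower, among them Spp1, which encodes osteopontin (-4.27), and Lrrc32, which presents latent TGFβ (-3.76), while Adam23 was higher (4.03); without 29048 7 were lower and 1 higher, and without R26P115 9 were lower and 3 higher. Of 19 other basement membrane genes, 5 were lower, Hspg2, which encodes perlecan (-3.36), and Col18a1 (-2.89) being the lowest, and 2 were higher, Frem2 (3.57) and Smoc1 (2.13); without 29048 2 were lower and 1 higher, and without R26P115 5 were lower and 5 higher. Of 12 other laminin receptors and enzymes that glycosylate dystroglycan, Sdc4 (-2.66) and Sdc1 (-2.62) were lower and 0 were higher, against 1 and 2 without 29048. By site, 0 genes of these 4 lists passed.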

How the data were processed

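RNA-seq (polyA RNA, TruSeq stranded libraries, NovaSeq paired-end reads) was deposited for 16 mouse tumors. The authors trimmed reads with Trim Galore, mapped and counted them on mm10 with STAR 2.5.3a and deposited raw counts per gene symbol, whole and not normalized, and TPM values, which sum to 1000000 per tumor; the gene annotation is not given in the sources used here. Subgroup follows the study's own assignment and equals location: intra-CNS tumors are Shh and all others Myc. For 43990A the location label says extracranial and the study's sample list intracranial; the label was used. Members and lists were chosen with earlier results of these data known; 1 member enters the counts and sums and is not reported singly here.

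Counts of genes above 0 in any tumor were tested with edgeR 4.0.16 (TMM scaling, glmQLFit and glmQLFTest, no covariates) and Benjamini-Hochberg adjustment over all genes; a gene was called at an adjusted p below 0.05 and a log2 fold change beyond 1. DESeq2 1.42.0, which the study used, and limma 3.58.1 on log2(TPM + 1) or log2(TPM + 0.1), whose fold changes understate those of low genes, were alternatives, next to other size factors, filters and subsets of tumors. The test was checked on simulated data. Values in every Shh tumor, and the range and median over the Myc tumors, are given for called members whose mean count reached 50 and for the member with the highest median TPM in each class; Itga3, Itga7, Itgb8, Lama1 and Lamc3 were added after their values were seen, and of the other lists the 2 highest and 2 lowest called genes with that mean count are named. Correlations used 100000 resamples, and R 4.3.3 was used. Gene positions are from GENCODE M21 (GRCm38), in which all 37 members were found, and promoters from RefSeq (GRCm38.p6), in which 23 were found. Reads carry no molecular identifiers. Each tumor comes from a different mouse.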

Additional observations from a re-analysis of the deposited data

Results flagged for a closer look

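In 19 of the 111 sets formed by 37 members in 3 groups, the highest or lowest tumor stood apart from the others on log2(TPM + 1) by more than Dixon's criterion at 95% allows; chance alone flags about 5% of such sets. Of these tumors, R26P115 was set apart 4 times, with Itgb8 at 5.0, Itga8 at 4.28, Lama2 at 3.48 and Itgb6 at 2.29, all highest among the intracranial Myc tumors; its choroid plexus markers are given above and their part was not tested. The jaw tumor 43987A was highest of the extracranial group for Itga7 (7.67), Itga3 (5.89) and Itgb8 (2.70).

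Among the intracranial tumors, 43989C was highest for Lama1 (5.87) and Itgal (4.41), 43992A for Lama3 (2.8) and R26P170 for Lamb3 (2.84). In the extracranial group, R26P123 was highest for Lamb3 (2.32) and Itgb6 (0.73), 43998A for Itga2 (4.31), and 43825B lowest for Lamb2 (6.88). Of the Shh tumors, R26P98 was highest for Itgb1 (8.04), 38594A for Lamb3 (2.75) and 29048 for Itgad (1.25) and Itgb6 (0.24). The value of Itgad in 29048 rests on 64 counts, and those of Itgb6 in 29048 and R26P123 on 11 and 47.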

How the results depend on the processing

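No paired analysis was possible because every mouse gave a single tumor and the groups share no mouse. The 16 members called between subgroups became 22 with DESeq2, 11 with limma on either log2 scale and 12 to 18 when a tumor was left out. Itga5, Itga9, Itgam, Itgav, Itgb1, Itgb2 and Itgb3 were called in all 27 alternatives other than the R26P mice alone (2 Shh and 3 Myc tumors), where 0 members and 0 genes passed. The calls of Itga11, Itgb5, Itgal, Itgb6, Lama4, Lamb1 and Lamc1 were lost with limma on log2(TPM + 1); the cause was not tested. Over all genes, 5689 calls became 3533 in tumors induced at E6, where fewer tumors entered the fit, and the 2829 higher and 2860 lower calls became 4082 and 1324 with limma, on whose scale the median of all genes was 0.20 instead of -0.15 and that of the members -0.46.

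Signs turned for Itga11 in tumors induced at E6 (0.45), Lama1 against intracranial Myc tumors alone (-0.55) and Lamc3 with limma on log2(TPM + 0.1) (0.064), and for the correlations of Itgav with Itgb8 (0.41) and Lamb1 with Lamc1 (0.32) without R26P115; none of these values passed its test, and the cause was not tested. Itga7 turned from -0.18 to 1.26 with DESeq2 and 2.03 in tumors induced at E6, which passed, and to 1.62 with limma on log2(TPM + 1), 1.78 on log2(TPM + 0.1), 0.23 with the naming scheme as a covariate, 0.83 against intracranial Myc tumors alone and 1.5 in the R26P mice, which did not; with a tumor left out it ran from -0.31 to 1.30, above 0 only without 43987A. Of the members not among these, Lamb3 turned from -0.14 to 2.83 among the mice named by number (adjusted p = 0.0288) and Itgad from 2.66 to -2.45 without 29048 (adjusted p = 0.155); the signs of Itga1, Itga2, Itgae, Lama2 and Lama3 also turned under some alternatives, in none of which they passed. By site, the 1 gene called became 490 with DESeq2 and 2 with limma on log2(TPM + 0.1), 0 in tumors induced at E8, and 0 to 3 when a tumor was left out, while 0 members were called in any of these.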
